A study of Rattus norvegicus with 59 samples.

Results

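Cd33 and Siglec8 are 2 of the 2887 complete gene entries of a lung FPKM table, found by their gene symbols, and were chosen for description with earlier results of these data known. FPKM is the number of sequenced fragments of a gene scaled to the transcript's length and to the mapped fragments of the library. The rats were male Fischer 344 animals, 3 months of age when bought, and breathed crystalline silica at 15 mg/m3 or air in a whole-body inhalation chamber for 6 h a day on 5 days. Lung pieces were taken at month 1, 3, 6, 9, 12 or 18 after exposure from 5 silica rats and 5 air rats each time, except that the 9-month air group held 4 rats, which gives 30 silica and 29 air libraries, 1 per rat. Every time had air rats of its own, so age at sampling was matched within a comparison but rose along the series. The design sets silica rats against air rats of the same time, and sets those differences against each other as the months passed. The labels describe each library as a rat of its own, so the p-values measure the spread between rats.

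Siglecs are cell-surface lectins that bind sialic acids, the sugars that cap the glycans of most animal cells. Many siglecs of white blood cells carry inhibitory motifs in their cytoplasmic tails that recruit the phosphatases SHP-1 and SHP-2, and a few instead pair with the activating adaptor DAP12, the product of Tyrobp. CD33 is the founding member of the CD33-related group and in humans marks cells of the myeloid lineage. Human Siglec-8 is known from eosinophils, mast cells and basophils, and its functional counterpart in mice, Siglec-F, is found on eosinophils and alveolar macrophages. Rat Siglec8 was found by its symbol, and whether it matches human Siglec-8 or mouse Siglec-F was not examined here. The cells that use the rat genes were not identified by these bulk data. In a bulk sample more cells of a type and more RNA per cell cannot be told apart, which applies to every difference given here.

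Both genes lie on rat chromosome 1 in a run of siglec genes whose order in the RefSeq annotation of GRCr8 is Siglec5, Siglec10, Siglecl1, Cd33 and Siglec8. Cd33 and Siglec8 are both read from the minus strand, and RefSeq gives each of them more than 1 start. The 250 bases before the starts are shown in 5′ to 3′ order because both genes rose, from RefSeq windows of the build GRCr8. Capitals mark any match on either strand to 5 short motifs of factors used in myeloid cells, namely the PU.1 core GAGGAA, the C/EBP motif TTNNGNAA, the RUNX motif TGTGGT, the AP-1 motif TGANTCA and the STAT6 motif, which is TTC and GAA with 4 bases of any kind between them.
Cd33, outer start, chr1:103086688-103086937, minus strand: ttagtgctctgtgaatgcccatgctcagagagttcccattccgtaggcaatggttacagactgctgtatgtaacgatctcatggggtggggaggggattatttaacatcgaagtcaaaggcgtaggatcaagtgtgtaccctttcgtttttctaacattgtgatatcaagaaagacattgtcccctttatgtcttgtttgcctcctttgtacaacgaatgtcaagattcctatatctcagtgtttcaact
Cd33, inner start, chr1:103074699-103074948, minus strand: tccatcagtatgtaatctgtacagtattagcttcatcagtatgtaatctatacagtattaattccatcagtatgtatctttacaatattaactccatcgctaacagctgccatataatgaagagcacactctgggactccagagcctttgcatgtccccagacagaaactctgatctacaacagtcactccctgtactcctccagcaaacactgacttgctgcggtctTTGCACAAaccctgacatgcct
Siglec8, first start, chr1:103239686-103239935, minus strand: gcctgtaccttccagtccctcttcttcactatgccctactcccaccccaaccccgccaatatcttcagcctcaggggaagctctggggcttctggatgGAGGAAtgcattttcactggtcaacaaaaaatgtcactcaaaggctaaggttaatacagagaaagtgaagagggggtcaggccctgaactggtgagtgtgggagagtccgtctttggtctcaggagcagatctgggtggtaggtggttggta
The window of the outer Cd33 start held none of the 5 motifs. The inner Cd33 start had 1 match, to the C/EBP motif, 15 to 22 bases before the start, and 37.2% of all 33469 RefSeq promoter windows of this length hold that motif. Siglec8 had 1 match, to the PU.1 core, 147 to 152 bases before its first start, and 23.3% of windows hold that core. The RUNX motif stands in 14.5% of windows, the AP-1 motif in 6.34% and the STAT6 motif in 6.25%. No match overlapped another in the printed windows, and no motif was shared by the windows of both genes. A match of letters is a description and was not tested against expression.

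The table covers part of the genome: of 1729 entries whose name is a RefSeq symbol, 1714 lie on chromosome 1, and genes elsewhere were not analysed here. An FPKM of 1 in at least 4 libraries was reached by 1278 entries (44.3%), including both members, and these were tested with limma on log2(FPKM + 0.5) with Benjamini-Hochberg adjustment over all of them. The library sums of FPKM ranged from 12818 to 38613. The highest were 38613 in air replicate 3 at 9 months and 31740 in silica replicate 5 at 3 months, and all others were at most 17600. Read numbers are not given by FPKM. The steps between low values gave relative depths of 0.432 to 2.26 of the typical library. These depths are rough, since 63.7% of the low values lay within log2 0.1 of their step. The lowest depths were both at 9 months, 0.432 in air replicate 1 and 0.471 in silica replicate 4. Lung epithelium was represented by the alveolar type 2 genes Napsa and Lpcat1, with means of 108 and 66.8 FPKM over all libraries. The library labelled silica replicate 3 at 12 months stood apart from its group. It had 12.7 FPKM of Cd177, a neutrophil surface protein, against 31.8 to 46.8 in the other 4 silica rats and 8.07 to 16.3 in the air rats of that time. Its Tyrobp level of 57.0 FPKM lay below the 107 to 151 of the other silica rats, and its Napsa level of 76.5 FPKM lay below their 128 to 191. Results that rest on it are given with and without it.

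Across the 6 times Cd33 was 1.82-fold higher in silica lungs than in air lungs and Siglec8 1.39-fold higher. The log2 changes were 0.87 ± 0.071 for Cd33 and 0.47 ± 0.044 for Siglec8 (SE; limma adjusted p = 3.95e-15 and 3.25e-13, 30 silica and 29 air libraries). Both members were thus called higher, where 37.5% of tested genes were called higher and 20.1% lower, and the median log2 change of all tested genes was 0.032. The change of Cd33 exceeded that of 98.4% of tested genes and the change of Siglec8 that of 94.6%. Over all libraries Cd33 ranged from 1.93 to 8.83 FPKM and Siglec8 from 2.47 to 7.18 FPKM, so the levels of the genes per length were of the same order.

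Cd33, the siglec that marks myeloid cells in humans, was not called at the first time and was higher in silica lungs at all 5 later times. At 1 month it stood at 5.08, 4.55, 3.97, 3.81 and 5.16 FPKM in the silica rats, against 4.32, 2.99, 3.07, 3.76 and 3.22 FPKM in the air rats. The groups overlapped, with 3 of 5 silica rats above the highest air rat, and the log2 change of 0.34 ± 0.17 did not pass the test (SE; limma adjusted p = 0.233, 95% interval -0.0047 to 0.68, 5 rats a group). By 3 months the silica rats had 6.02, 6.23, 6.69, 4.96 and 4.20 FPKM, against 2.47, 2.64, 2.25, 3.28 and 3.69 FPKM in air rats. Every silica rat was now above every air rat, as for 11.0% of tested genes at that time, and Cd33 rose by 0.86 ± 0.17 on the log2 scale (limma adjusted p = 0.000196).

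Cd33 was farthest from air at 6 and 9 months. Its 6-month values were 6.55, 6.65, 6.31, 7.93 and 6.455 FPKM in silica rats and 2.89, 2.45, 2.60, 2.32 and 3.95 FPKM in air rats. Cd33 rose by 1.14 ± 0.17 in log2 units (SE; adjusted p by limma = 1.39e-06). The lowest silica rat was well clear of the highest air rat, and 20.6% of tested genes were separated in that direction at 6 months. At 9 months the silica rats had 4.92, 5.99, 7.91, 7.88 and 8.83 FPKM, against 1.93, 3.27, 3.45 and 2.92 FPKM in the 4 air rats. The rise was 2.24-fold (log2 1.16 ± 0.18, limma adjusted p = 2.56e-06), again without overlap, where 16.0% of genes were separated. The spread among silica rats was widest of the separated times here, with an SD of 1.60 FPKM against 0.679 FPKM in air.

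At 12 months 4 silica rats had 7.04, 5.32, 7.51 and 6.86 FPKM of Cd33 and the library that stood apart had 2.35 FPKM, against 2.24, 2.72, 3.43, 2.94 and 3.20 FPKM in air rats. That single library lay inside the air range. On the log2 scale the rise was 0.81 ± 0.17 with it (SE; limma adjusted p = 0.000475) and 1.08 without it (adjusted p = 4.92e-08). In a fit of the 12-month rats alone it was not called (adjusted p = 0.117), where 1 gene was called in all. At 18 months the silica rats were close together at 5.59, 5.77, 5.42, 6.31 and 5.01 FPKM, against 2.74, 2.98, 2.64, 3.21 and 2.49 FPKM in air rats. The rise was 1.85-fold (log2 0.89 ± 0.17, limma adjusted p = 0.000239) and the groups did not overlap, which held for 9.23% of genes.

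Siglec8, named after the human eosinophil and mast cell siglec, already differed at the first time. At 1 month silica rats had 4.04, 3.95, 4.63, 4.60 and 4.35 FPKM, against 3.13, 2.56, 2.75, 2.57 and 3.44 FPKM in air rats. Every silica rat was above every air rat, where 8.06% of genes were so separated, and Siglec8 rose 1.42-fold (log2 0.51 ± 0.11, SE; limma adjusted p = 0.00159). Of the members, Siglec8 alone was called higher at 1 month, when 8.45% of tested genes were. At 3 months the silica rats had 5.09, 4.53, 4.75, 4.72 and 3.85 FPKM and the air rats 3.25, 2.51, 3.32, 2.92 and 2.47 FPKM. The groups did not overlap, as for 11.0% of tested genes at that time. The change was 0.59 ± 0.11 (limma adjusted p = 6.03e-05), and both members were called higher, against 15.9% of genes.

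The Siglec8 difference stayed near that size at 6 months, with 5.36, 4.89, 4.85, 4.91 and 4.29 FPKM in silica rats and 3.04, 2.98, 3.17, 2.88 and 3.26 FPKM in air rats. Again every silica rat was above every air rat, as for 20.6% of tested genes. In log2 units the change was 0.59 ± 0.11 (SE; limma adjusted p = 3.45e-05), and both members were called higher, against 21.2% of genes. At 9 months the silica values were 4.50, 4.38, 5.17, 4.88 and 4.82 FPKM, against 3.25, 3.84, 3.02 and 4.07 FPKM in air. The groups still did not overlap, as for 16.0% of tested genes. The air mean of 3.55 FPKM was the highest of the 6 air groups, and the rise was 0.38 ± 0.11 (limma adjusted p = 0.00799), with both members called higher, against 19.5% of genes.

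At 12 months Siglec8 had 5.06, 4.35, 4.29 and 4.71 FPKM in 4 silica rats and 3.00 FPKM in the library that stood apart, against 3.27, 4.23, 3.90, 2.89 and 3.07 FPKM in air rats. The log2 change of 0.26 ± 0.11 missed the threshold (SE; limma adjusted p = 0.0640), and without that library it was 0.37 (adjusted p = 0.00420), in a fit that called 457 genes at 12 months against 302 with it. It was also called without air replicate 2 (0.33, adjusted p = 0.0286) or air replicate 3 (0.30, adjusted p = 0.0469), the air rats with the highest Siglec8. As each of the 10 rats of that time was left out in turn, it stayed uncalled in 7, with a change down to 0.20 and a limma adjusted p of up to 0.22. Cd33 alone of the members was called higher in all libraries at 12 months, against 14.6% of genes, and neither member was free of overlap, as 1.64% of genes were. At 18 months the silica rats had 4.42, 7.18, 3.78, 5.05 and 4.36 FPKM of Siglec8, against 3.67, 3.24, 3.19, 3.23 and 3.00 FPKM in air rats. The groups did not overlap, as for 9.23% of tested genes. Silica replicate 2 was far above the rest, and the change was 0.51 ± 0.11 with it (limma adjusted p = 0.000628) and 0.38 without it (adjusted p = 0.00743). Both members were called higher at 18 months, against 11.8% of genes.

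**Figure D1:**
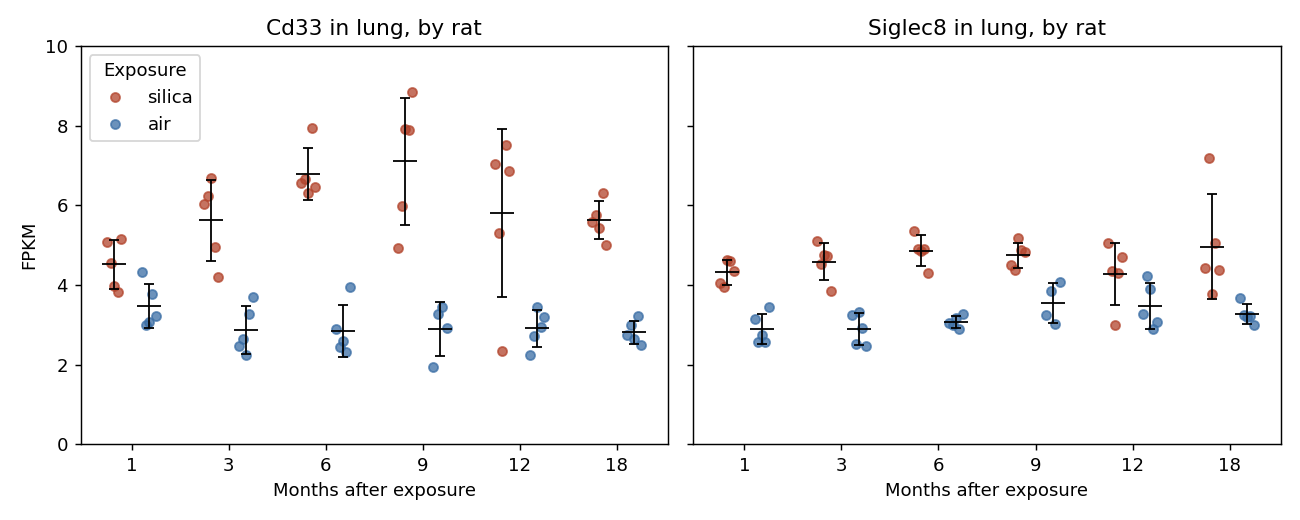
FPKM of Cd33 (left) and Siglec8 (right) in each rat, by months after exposure, with silica rats left of air rats and bars at the group mean ± SD (n = 5, or 4 in air at 9 months). Silica and air rats do not overlap for Cd33 at 3, 6, 9 and 18 months or for Siglec8 at 1, 3, 6, 9 and 18 months, and the low silica rat at 12 months is the library at 2.35 FPKM of Cd33 and 3.00 FPKM of Siglec8. Of all tested genes, 8.06% were so separated at 1 month, 11.0% at 3, 20.6% at 6, 16.0% at 9 and 9.23% at 18 months.

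Ordered by mean level, every silica group stood above every air group for both genes. For Cd33 the order ran from silica at 9 months (7.11 ± 1.60 FPKM, SD, n = 5) through silica at 6, 12, 3, 18 and 1 months to air at 1, 12, 9, 3, 6 and 18 months (2.81 ± 0.285 FPKM, SD, n = 5). Only 3 of the 11 steps between neighbours in that order were larger than the neighbours' root mean square SD: silica at 18 months (5.62 FPKM) over silica at 1 month (4.52 FPKM), silica at 1 month over air at 1 month (3.47 FPKM), and air at 1 month over air at 12 months (2.91 FPKM). For Siglec8 silica at 18 months came first (4.96 ± 1.32 FPKM, SD, n = 5), followed by silica at 6, 9, 3, 1 and 12 months and air at 9, 12, 18, 6, 3 and 1 months (2.89 ± 0.385 FPKM, SD, n = 5). There the only step of 11 beyond the SD was that from silica at 12 months (4.28 FPKM) to air at 9 months (3.55 FPKM). Among silica groups the mean of Cd33 thus spanned 4.52 to 7.11 FPKM and that of Siglec8 4.28 to 4.96 FPKM.

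Whether the silica difference itself changed with time was tested in the same fit. Each later difference was set against that at 1 month. The air mean of Cd33 was highest then, at 3.47 FPKM, against 2.81 to 2.91 FPKM in the other air groups. For Cd33 the difference was larger at 9 months than at 1 month by 0.82 ± 0.25 in log2 units (SE; limma adjusted p = 0.0461), where 1.02% of tested genes were called higher. This call rested on single rats, with adjusted p from 0.0265 to 0.128 when each of 19 rats of those times was left out, and it was lost in 12 of the 19. With no filter on low values its adjusted p was 0.0829. Leaving out air replicate 1 at 9 months, the library of lowest relative depth (0.432), gave 0.67 (limma adjusted p = 0.128). Leaving out silica replicate 4 at 9 months (depth 0.471) gave 0.78 (limma adjusted p = 0.0868). The difference at 6 months exceeded that at 1 month by 0.80 ± 0.24 (adjusted p = 0.0950), where 0.235% of genes were called higher. At 12 months the excess was 0.47 ± 0.24 (adjusted p = 0.357), where 0.156% of genes were called higher. Without the library that stood apart it was 0.74 (adjusted p = 0.0156), and in that fit 112 of 1278 genes were called in either direction, against 4 with all libraries. The F test over all times gave adjusted p = 0.221 for Cd33 with all libraries, where 1.33% of genes passed. Without that library the F test gave adjusted p = 0.0250 for Cd33, and the share of all genes passing it in that fit was not counted.

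Siglec8 showed no such change past the test. Its silica difference at later times minus that at 1 month lay between -0.25 ± 0.15 at 12 months and 0.077 ± 0.15 at 3 months (SE; limma adjusted p = 0.460 to 0.996 over the 5 later times, at which 0.0782% to 1.02% of genes were called higher), and the F test gave adjusted p = 0.550. At 18 months the difference was -0.0029 from that at 1 month, with a 95% interval of -0.31 to 0.30. In air lungs neither gene was called with age, and air at 18 months minus air at 1 month was -0.25 ± 0.17 for Cd33 and 0.16 ± 0.11 for Siglec8 (limma adjusted p = 0.308 and 0.318), where 21.8% of tested genes were called in either direction.

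**Figure D2:**
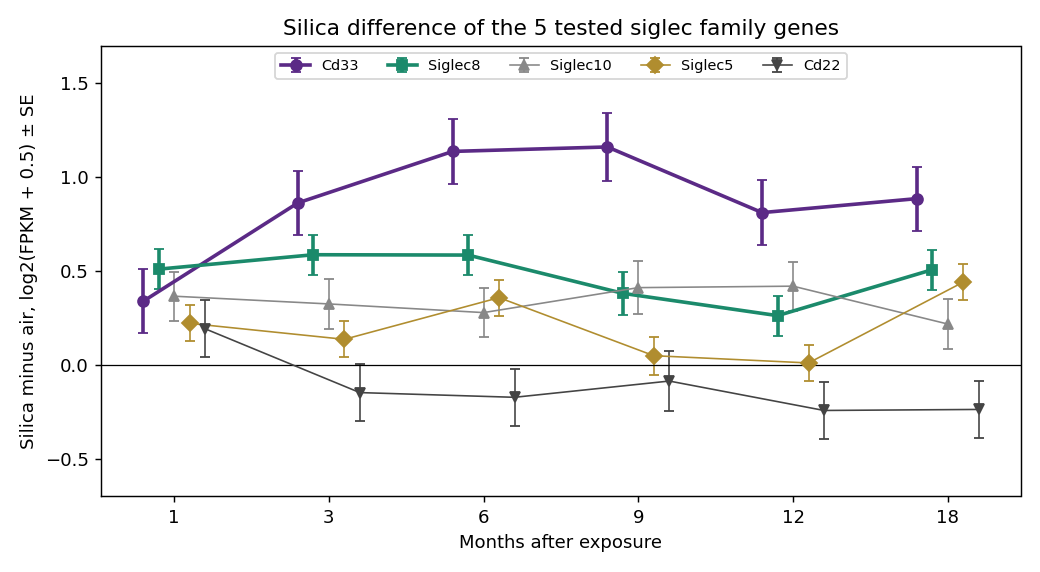
Log2 change of silica over air (log2(FPKM + 0.5), points, with SE as bars) by months after exposure for the 5 tested genes of the siglec family. Cd33 stands at 0.34 at 1 month and 1.16 at 9 months, Siglec8 lies between 0.26 and 0.59 throughout, and Cd22 lies below 0 after 1 month.

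The genes were compared directly through the log2 ratio of Cd33 to Siglec8 within each library, in which a library's scaling cancels apart from the pseudocount. At 1 month the ratio averaged 0.053 ± 0.25 in silica and 0.22 ± 0.22 in air (SD, n = 5 each), a difference of -0.17 (exact two-sided permutation p = 0.27, adjusted 0.27). At 6 months it averaged 0.44 ± 0.15 in silica and -0.11 ± 0.21 in air (SD, n = 5 each), with all 5 silica rats above the highest air rat. That difference of 0.55 had an exact permutation p of 0.00794, the smallest that 5 against 5 rats allow, and 0.0476 adjusted over the 6 times. It was not called when any of the 5 silica rats was left out (0.50 to 0.60, exact adjusted p = 0.0714 each), and was called without any of the 5 air rats. Exact p moves in coarse steps with so few rats, so the equal adjusted p does not tell whether any 1 rat mattered. At 9 months the ratio was 0.51 ± 0.26 in silica (SD, n = 5) and -0.27 ± 0.34 in air (SD, n = 4), a difference of 0.78 with exact adjusted p = 0.0714.

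The ratio difference was 0.28 at 3 months, 0.55 at 12 months and 0.38 at 18 months, and none of these passed after adjustment (exact permutation adjusted p = 0.238, 0.0714 and 0.0714). Without the library that stood apart it was 0.71 at 12 months (exact adjusted p = 0.0238), and without silica replicate 2 it was 0.50 at 18 months (exact adjusted p = 0.0238). Over the 6 times Cd33 gained 0.39 ± 0.071 on Siglec8 in silica against air (SE; permutation of rats within times, p = 2e-05). The air rats contributed to the later differences, since their mean ratio was 0.22 at 1 month and between -0.27 and -0.022 at the later times.

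**Figure D3:**
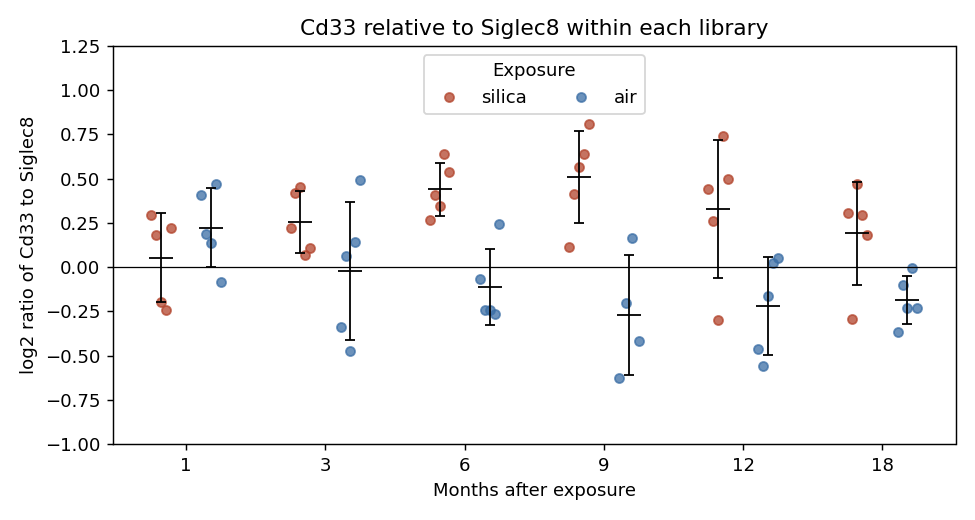
Log2 ratio of Cd33 to Siglec8, log2(FPKM + 0.5) of each, in every library, with silica left of air at each time and bars at the group mean ± SD. All 5 silica rats lie above every air rat at 6 months, whereas at 1 month the silica mean of 0.053 lies below the air mean of 0.22.

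Rats that were high for one gene were compared with their standing for the other, after each group mean was subtracted. Among the 30 silica rats Pearson r was 0.56 (permutation p = 0.00704, adjusted 0.0141 over the silica and air tests) and Spearman rho was 0.45 (permutation p = 0.0178, adjusted 0.0357). Without the 2 rats farthest from the median of Cd33, r was 0.27 (permutation p = 0.11), so the relation rested on those rats. Among the 29 air rats r was 0.014 (permutation p = 0.949) and rho was 0.016 (permutation p = 0.945).

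**Figure D4:**
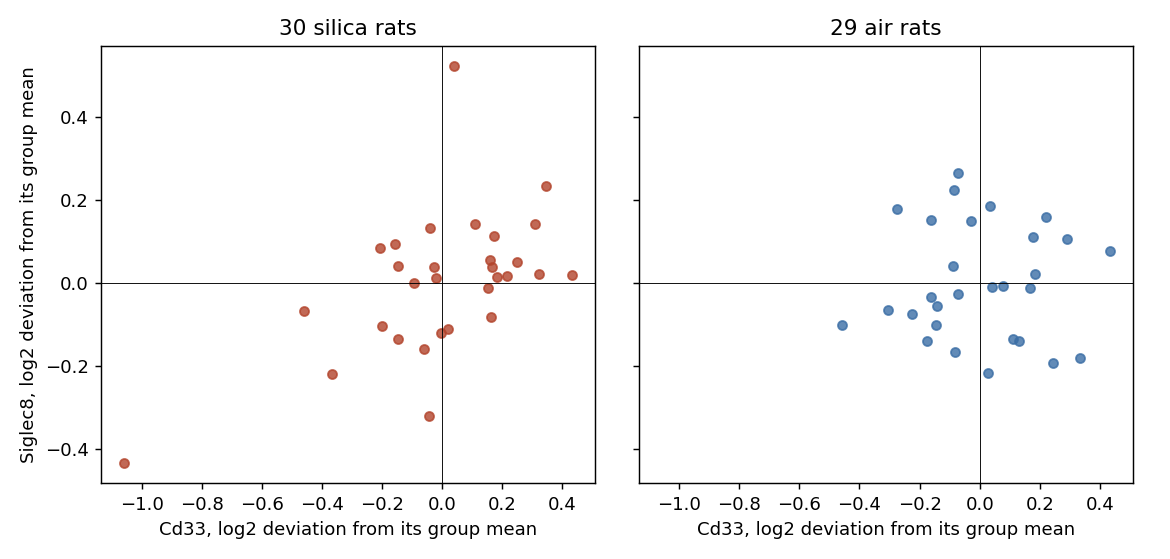
Siglec8 against Cd33 in each rat as the log2 deviation from its own group mean, for 30 silica rats (left) and 29 air rats (right). The silica rat at the lower left is the 12-month library that stood apart, and Pearson r was 0.56 in silica and 0.014 in air.

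Of 15 siglec family genes on the list, 8 were in the table and 5 were tested. Over the times 4 of the 5 were called higher and none lower, with a median log2 change of 0.34, where 37.5% of all tested genes were called higher and 20.1% lower. That count includes Cd33 and Siglec8 themselves, which were chosen with earlier results known. Of the other tested siglecs, Siglec10 and Siglec5 were called higher and Cd22 was not called. Siglec10, whose mouse counterpart Siglec-G restrains B cells, averaged 4.59 FPKM over all libraries and rose by 0.34 ± 0.054 (SE; limma adjusted p = 6.11e-07). It was called at 9 months (0.41 ± 0.14, adjusted p = 0.0199) and 12 months (0.42 ± 0.13, adjusted p = 0.0154). Siglec5 averaged 3.79 FPKM and rose by 0.20 ± 0.039 (adjusted p = 1.90e-05), with calls at 6 months (0.36 ± 0.096, adjusted p = 0.00344) and 18 months (0.44 ± 0.096, adjusted p = 0.000817). At 18 months Siglec5 had 4.97, 6.55, 4.94, 4.86 and 5.46 FPKM in silica rats, against 3.70, 3.71, 3.48, 3.86 and 4.22 FPKM in air rats. Silica replicate 2 was the highest rat for Siglec5 as it was for Siglec8, while its Siglec10 level of 3.45 FPKM was the lowest of its group.

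Cd22, the siglec of B cells, averaged 1.76 FPKM and changed by -0.12 ± 0.063 (limma adjusted p = 0.110). It was called lower with median centring of the libraries (-0.18, adjusted p = 0.0116) and with quantile normalization (-0.15, adjusted p = 0.0269). Siglech, a siglec of mouse plasmacytoid dendritic cells that pairs with DAP12, reached at most 1.23 FPKM and was not tested. Siglecl1 was listed at 0 in 54 of 59 libraries and Mag, the myelin siglec, in 49. Siglec genes are related in sequence, and how fragments that match more than 1 of them were assigned is not given in the sources used here, so levels of single members are uncertain to that extent.

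Of 3 tested neighbours on the chromosome 1 was called higher, where 37.5% of all tested genes were. Zfp819, which lies between Cd33 and Siglec8, changed by -0.0024 ± 0.049 over the times, and Ctu1, next to Siglec8 on the other side, by 0.031 ± 0.039 (SE; limma adjusted p = 0.968 and 0.518). Vsig10l, on the other side of Cd33, rose by 0.28 ± 0.040 (adjusted p = 5.04e-08). The remaining neighbours Iglon5, Siglecl1, Ceacam18, Klk14 and Klk13 were too low to be tested.

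The tested genes of paired immunoreceptors and adaptors were mostly higher in silica. Of 21 paired immunoreceptor and adaptor genes on the list 11 were in the table and 9 tested, of which 7 were called higher and 1 lower over the times (median log2 change 0.33), against 37.5% higher and 20.1% lower among all tested genes. Tyrobp rose by 0.56 ± 0.056, its relative Hcst, the adaptor DAP10, by 0.23 ± 0.085, and the inhibitory receptor gene Lilrb4 by 1.12 ± 0.078 (SE; limma adjusted p = 2.68e-12, 0.0195 and 2.70e-17). Oscar, an activating receptor of myeloid cells, rose by 0.66 ± 0.052, and Fcar, the IgA receptor, by 0.75 ± 0.068. In air rats Fcar reached at most 0.821 FPKM and Oscar at most 1.02 FPKM, below or near the floor of 1 FPKM. Both thus entered the test mainly through silica rats, which favours a higher call and bears on the count of 7. Ncr1, a receptor of natural killer cells, fell by 0.27 (adjusted p = 0.00123). None of 10 downstream signalling genes on the list, such as the SHP-1 gene, was among the genes analysed here. Of 32 genes of sialic acid metabolism 1 was tested, the polysialyltransferase gene St8sia2, which fell by 0.25 (limma adjusted p = 0.00582). St8sia2 was near the floor of 1 FPKM, with means of 0.731 FPKM in silica rats and 0.939 FPKM in air rats. Of the single times it was called lower only at 6 months.

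The tested markers of monocytes and neutrophils were higher in silica lungs as well. In the monocyte and neutrophil list 5 of 15 genes were tested and all 5 were called higher over the times, with a median log2 change of 0.93, where 37.5% of all tested genes were called higher. Fpr1 and Fpr2 of that list were too low to be tested. Fpr1 averaged 0.250 FPKM in silica rats and 0.184 FPKM in air rats, and Fpr2 0.161 FPKM in silica rats and 0.181 FPKM in air rats. The summed FPKM of the 7 genes of that list in the table was 26.7 to 86.1 in silica rats and 16.3 to 35.3 in air rats. At 1 month it was 48.4 to 52.1 in silica rats, all above the 17.5 to 25.1 in air rats, and the largest part of the silica sum was Cd177, at 28.0 to 29.7 FPKM in the 5 silica rats and 3.57 to 9.74 FPKM in the 5 air rats. At that time 3 of the 5 tested genes were called higher, with a median log2 change of 0.43, where 8.45% of all tested genes were called higher. The remaining lists had few genes in the table: 1 of 16 for alveolar macrophages (Itgax, 0.73 ± 0.055), 1 of 10 for mast cells and basophils (Enpp3, 1.00 ± 0.066), 1 of 7 for leukocytes in general (Coro1a, 0.24 ± 0.047) and 0 of 7 for eosinophils. None of the 3 tested B cell genes was called over the times (limma, median -0.12, 0 of 3 at an unadjusted p under 0.05), although Cd22, as given above, was called lower under both other scalings. Of 4 T and natural killer cell genes the integrin gene Itgal was called higher (0.27 ± 0.037, limma adjusted p = 8.49e-09) and 2 were called lower. Among all tested genes 37.5% were called higher and 20.1% lower over the times. Nkg7, a granule protein of cytotoxic cells, was down by 0.38 (limma adjusted p = 3.36e-07). All 3 tested alveolar type 2 genes were called higher over the times (median 0.64), against 37.5% of all tested genes. Their summed FPKM was 138 to 318 in silica rats and 130 to 166 in air rats. B cell genes summed to 4.29 to 10.4 FPKM in silica rats and 4.50 to 9.28 FPKM in air rats. No marker in the table was listed at 0 in every library. What part changes in cell content had in the rise of the members was not tested.

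Set against other myeloid genes of the same libraries, the members were described by ratios. Over the times the ratio of Cd33 to Tyrobp rose by 0.30 ± 0.063 on the log2 scale (SE; permutation within times, p = 8e-05 adjusted over 6 ratios). The ratio of Cd33 to the integrin gene Itgam changed by -0.059 ± 0.080 (adjusted permutation p = 0.449), and that to Itgax by 0.14 ± 0.073 (adjusted permutation p = 0.136). Siglec8 fell by 0.45 relative to Itgam and by 0.26 relative to Itgax (adjusted permutation p = 6e-05 for both). Relative to Tyrobp it changed by -0.092 ± 0.049 (adjusted permutation p = 0.112), by -0.11 without silica replicate 3 at 12 months (adjusted permutation p = 0.0367), and by -0.13 without both libraries that stood apart for the members, silica replicate 3 at 12 months and silica replicate 2 at 18 months (adjusted permutation p = 0.00703).

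**Figure D5:**
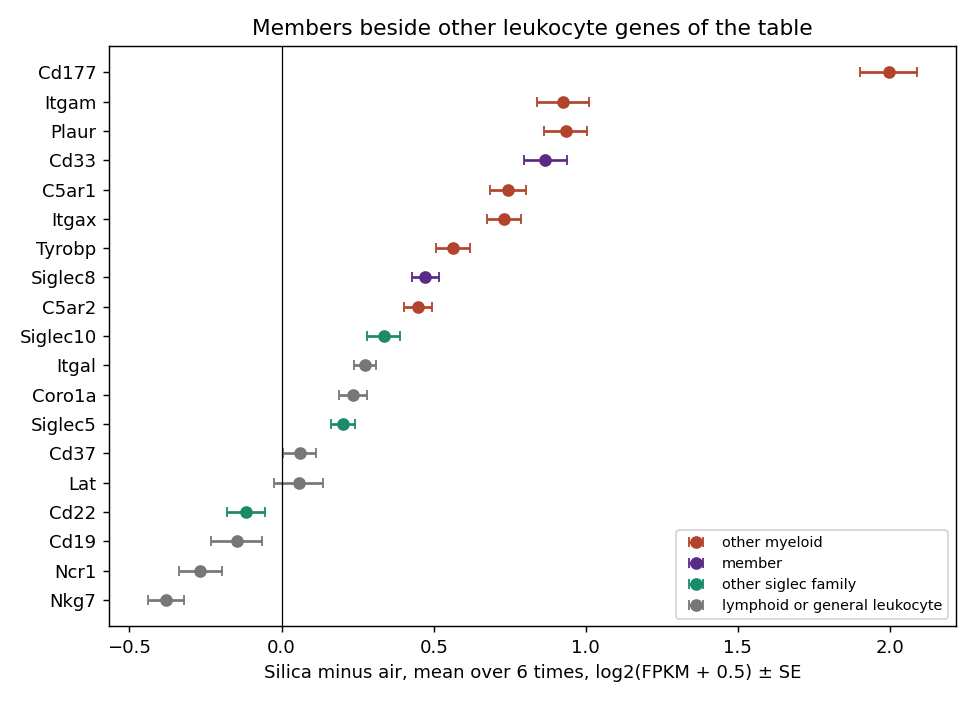
Mean log2 change of silica over air across the 6 times (log2(FPKM + 0.5), points, with SE as bars) for the members, other siglecs, other myeloid genes and lymphoid or general leukocyte genes. Cd33 at 0.87 lies between Plaur at 0.93 and C5ar1 at 0.74, and Siglec8 at 0.47 lies between Tyrobp at 0.56 and C5ar2 at 0.45.

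The genes whose pattern was most like that of each member were ranked by Pearson r over the 12 group means among 1013 tested genes with symbols. Those points share the split into silica and air, which raises r for every gene that rose. Closest to Cd33 were Ldha, lactate dehydrogenase (r = 0.99), the surfactant lipid enzyme gene Lpcat1 (0.98), Ceacam10 (0.98), the purinergic receptor gene P2ry2 (0.97), Cib1 (0.97), the actin regulator gene Vasp (0.97), the proliferation marker Mki67 (0.97) and Sod2, mitochondrial superoxide dismutase (0.97). Closest to Siglec8 were the complement receptor gene C5ar1 (0.97), Cd177 (0.96), Cib1 (0.96), the vault protein gene Mvp (0.96), Ceacam10 (0.96), Hps5 (0.96), Tyrobp (0.95) and Cln3, a lysosomal membrane protein gene (0.95). Ceacam10 and Cib1 stood on both lists. The members themselves had r = 0.91, which placed Siglec8 at rank 64 for Cd33 and Cd33 at rank 42 for Siglec8.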

How the data were processed

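Total RNA from 59 lung pieces was made into stranded libraries after Ribo-Zero Gold depletion of ribosomal RNA (TruSeq), per the labels' protocols. Per the submitters' processing notes, which give no order, Cufflinks 2.1.1, Bowtie2 2.2.9, TopHat2 2.0.9, Trimmomatic 0.35 and bcl2fastq 2.19 were used. Which genome build and gene models were used is not given in the sources used here. FPKM values made by the authors were deposited, 1 column per library. All columns matched a sample title (0 left over), and 1 of 2888 entries was incomplete and left out.

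FPKM are not counts, and depth is known only in relative terms, so no count model was used. Entries that reached FPKM 1 in 4 or more libraries entered one limma 3.58.1 fit of all 12 groups (R 4.3.3, log2(FPKM + 0.5), trended empirical Bayes, 47 residual degrees of freedom, threshold 0.05). Fold changes are on that scale, which shrinks those of low genes. Ratios were tested by two-sided exact permutation within a time, or by 100000 permutations within times for the mean. The fit was tested on simulated data. Plots used matplotlib 3.10.9 in Python 3.11.15.

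The members and gene lists were chosen with earlier results of these data known, and lists are described by counts. Named genes were the members, the measured siglec family, adaptors and markers, up to 3 measured neighbours on each side, and the 8 genes most like each member. Alternatives were other pseudocounts, no filter, median centring, quantile normalization, robust moderation, fits of one time alone and leaving out each rat. A fit without both libraries that stood apart was chosen after seeing the data.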

Additional observations from a re-analysis of the deposited data

Results flagged for a closer look

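Among 60 groups of 4 or 5 rats checked for the 5 tested siglec genes, 5 had a rat far from the others, where chance gives about 1 in 20. For Cd33 this was silica replicate 4 at 6 months, at 7.93 FPKM with the next rat at 6.65. For Siglec5 it was air replicate 3 at 12 months, at 4.07 FPKM with the next at 3.32. For Cd22 it was silica replicate 5 at 1 month (2.56 FPKM, next 1.75), silica replicate 2 at 3 months (1.96, next 1.55) and air replicate 3 at 3 months (2.50, next 1.80). No group of Siglec8 was picked out this way.

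The silica difference of Cd33 was larger at 9 months than at 1 month by 0.82 (limma adjusted p = 0.0461), which was the one difference between times that passed the test for the siglec genes.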

How the results depend on the processing

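Cd33 and Siglec8 kept their direction in every comparison of silica with air, within a time and over the times, under each pseudocount, filter, scaling, moderation and left-out rat. Robust moderation and a pseudocount of 0.1 changed no call of either gene. Cd33 at 12 months (0.81) was not called in a fit of that time alone (limma adjusted p = 0.117), in which 1 gene was called in all, against 302 in the fit of all groups. Its larger difference at 9 months than at 1 month (0.82) was not called with no filter (adjusted p = 0.0829), and spanned 0.67 to 0.94 as single rats were left out. Its excess at 6 months was called with median centring (0.83, adjusted p = 0.0473). The difference of Siglec8 at 18 months minus 1 month turned to 0.0050 with a pseudocount of 1 and to 0.030 with median centring or quantile normalization, and lay between -0.13 and 0.077 as rats were left out. The Siglec8 to Tyrobp ratio passed with a pseudocount of 1 (-0.14, adjusted permutation p = 0.01). Cd22 over the times was called lower with median centring (-0.18) and quantile normalization (-0.15). The causes of these changes were not tested.

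Without both libraries that stood apart, Siglec8 at 12 months (0.37, limma adjusted p = 0.000925), Cd33 at 6 and 12 months minus 1 month (0.80 and 0.74, adjusted p = 0.0185 and 0.0162), the F test of Cd33 (adjusted p = 0.0273), the Cd33 to Siglec8 ratio at 12 and 18 months (0.71 and 0.50, exact permutation adjusted p = 0.0159 for both) and the Siglec8 to Tyrobp ratio (-0.13, permutation adjusted p = 0.00703) all passed. Across rats, Pearson r without the 2 rats farthest from the median of Cd33 was 0.27 in silica and -0.16 in air.

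With each rat left out in turn, Siglec8 at 12 months ranged from 0.20 to 0.37, Cd33 at 12 months minus 1 month from 0.36 to 0.74, and the adjusted p of the F test of Cd33 from 0.025 to 0.374. The Cd33 to Siglec8 ratio ranged from 0.50 to 0.64 at 6 months (exact adjusted p 0.0476 to 0.0714, lost in 5 of 10), from 0.45 to 0.71 at 12 months and from 0.31 to 0.50 at 18 months, and the Siglec8 to Tyrobp ratio from -0.11 to -0.075.

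Counts of genes called moved too. At 1 month 65 were called with median centring and 44 to 136 as single rats were left out (44 without air replicate 2, 66 without silica replicate 5), against 113. At 12 months 194 to 457 were called as rats were left out (194 without silica replicate 1, 196 without replicate 4, 457 without replicate 3), against 302. At 18 months 130 were called in a fit of that time alone and 112 to 214 as rats were left out, against 196. The difference at 9 months minus 1 month gave 16 to 91 as rats were left out, 23 with no filter and 103 without both libraries, against 51. That at 12 months minus 1 month gave 1 to 112 as rats were left out, 113 without both, 12 with a pseudocount of 0.1 and 2 with no filter, against 4. That at 6 months minus 1 month gave 1 to 21 as rats were left out, 28, 24 and 39 with median centring, quantile normalization and without both, and 1 with a pseudocount of 1 or no filter, against 3.

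No paired analysis was possible because the titles give each rat a number of its own, so groups share no replicate numbers. Depth is known only in relative terms, which leaves the counting error behind levels of 2 to 9 FPKM unknown.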

Other observations

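The library labelled silica replicate 3 at 12 months was within or below the air range for both members and for the myeloid genes compared. It had 2.95 FPKM of Itgam, against 7.69 to 11.7 FPKM in the other 4 silica rats and 2.89 to 6.68 FPKM in the air rats, and 4.00 FPKM of Itgax, against 7.18 to 9.46 FPKM and 3.79 to 6.10 FPKM. Its Sod2 level was 25.7 FPKM, against 45.2 to 76.8 FPKM in the other silica rats and 23.3 to 29.5 FPKM in the air rats. Its relative depth was 0.707. Whether the label, the exposure of that rat or the tissue piece differed was not tested.

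Silica replicate 2 at 18 months was high for some siglecs and not for others. It had 7.18 FPKM of Siglec8, against 3.78 to 5.05 FPKM in the other silica rats and 3.00 to 3.67 FPKM in the air rats. Cd33 stood at 5.77 FPKM, inside the 5.01 to 6.31 FPKM of the other silica rats. Coro1a, an actin-binding protein of white blood cells, was at 53.5 FPKM, against 38.1 to 42.5 FPKM in the other silica rats and 34.7 to 46.4 FPKM in the air rats, and Cd22 was at 2.11 FPKM, against 0.970 to 1.74 FPKM in the other silica rats.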
